A study of Mus musculus with 2 samples.

Results

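Satellite cells, the muscle stem cells that lie between a myofiber and its basal lamina, were looked for through 7 of their transcripts on myofibers isolated 1 by 1 from the FDB, the flexor digitorum brevis of the mouse foot. The genes were listed by name from knowledge of this cell type. They were Pax7, Calcr, Myf5, Chodl, Cdh15, Vcam1 and Sdc4, of which 6 had a row among the 35163 genes of the count table and Cdh15 was not analysed here. They were followed over the 171 of 763 sequenced cells in which over 5000 genes were found and mitochondrial counts stayed under 20%. The labels give untreated C57BL/6J mice over 3 months old, and the methods of the study name adult males, also of the DBA2 background. How many mice gave these cells, and which cell came from which mouse, are not given in the sources used here. Whole myofibers came from collagenase digestion of the uncut muscle and fragments from small pieces cut from it, and both were sorted as large particles and prepared by mcSCRB-seq in 8 plates sequenced on 2 lanes. This plate method tags every captured RNA with a molecular identifier (UMI), and copies of a tagged RNA count once. Cells are not replicates and cannot be assigned to animals, so that no p-value is given. The limits below are exact 95% limits (Poisson for levels, Clopper-Pearson for shares, conditional binomial for ratios). Those for levels and ratios cover counting error only. Those for shares treat the fibers as independent draws, and none covers differences between plates, lanes or animals.

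An adult satellite cell is quiescent until injury and is held in that state in part by Notch signalling and by calcitonin receptor signalling from its niche. Pax7 is the transcription factor that defines the cell, and Myf5 is the myogenic factor that many of these cells already transcribe at rest. The cell adheres to the fiber surface, so a sorted fiber may carry it along, while surface proteins such as syndecan 4 are made by many cell types. A whole myofiber with an attached cell and a myofiber that makes the transcript itself give the same kind of count in this assay, and cannot be told apart from the UMIs of a single gene.

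The 171 fibers comprised 168 whole myofibers and 3 fragments, with 28827 to 1542996 UMIs each (median 239581). By their leading gene among Myh1, Myh2, Myh4, Myh7 and Myh8, 117 were fast 2X (Myh1), 51 were fast 2A (Myh2), 2 were slow (Myh7) and 1 was fast 2B (Myh4). The label of myofiber held, as all 10 of the listed myofiber genes were found in at least 90% of fibers and 8 of them in every fiber. The 96 well barcodes recurred between plates, and no full barcode was repeated. As a measure of stray or misassigned molecules, 15 measured genes that muscle is not expected to express, such as protamine and insulin genes, summed to between 0.0193 and 3.02 CPM each, the CPM being a gene's UMIs scaled to a fixed total of all gene UMIs. Their median was 0.327 CPM. The highest of them was the sperm gene Prm1, with 157 UMIs in 62 fibers and up to 18 UMIs in a single fiber.

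The promoters of 3 members are shown because they include the members with the highest level (Sdc4) and the lowest (Chodl), and the gene that defines the cell (Pax7). The sequences are from RefSeq on GRCm38.p6, 250 bases before to 50 after the start, on the minus strand for Sdc4 (chr2:164443139-164443438) and Pax7 (chr4:139832919-139833218) and on the plus strand for Chodl (chr16:78930698-78930997). Capitals mark the E-box CANNTG, the letters that myogenic factors can bind, which reads the same pattern on both strands.
Sdc4 promoter: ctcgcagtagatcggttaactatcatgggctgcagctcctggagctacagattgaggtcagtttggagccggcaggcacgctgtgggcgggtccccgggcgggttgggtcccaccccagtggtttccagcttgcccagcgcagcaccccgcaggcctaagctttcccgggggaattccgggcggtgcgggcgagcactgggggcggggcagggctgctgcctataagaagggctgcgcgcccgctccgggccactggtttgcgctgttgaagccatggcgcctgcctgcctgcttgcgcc
Pax7 promoter: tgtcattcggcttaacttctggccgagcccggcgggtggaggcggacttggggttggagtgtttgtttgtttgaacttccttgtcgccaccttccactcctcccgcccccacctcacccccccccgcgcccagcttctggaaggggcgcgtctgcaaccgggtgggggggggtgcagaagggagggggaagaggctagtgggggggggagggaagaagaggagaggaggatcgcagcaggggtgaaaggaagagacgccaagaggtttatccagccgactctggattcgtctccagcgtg
Chodl promoter: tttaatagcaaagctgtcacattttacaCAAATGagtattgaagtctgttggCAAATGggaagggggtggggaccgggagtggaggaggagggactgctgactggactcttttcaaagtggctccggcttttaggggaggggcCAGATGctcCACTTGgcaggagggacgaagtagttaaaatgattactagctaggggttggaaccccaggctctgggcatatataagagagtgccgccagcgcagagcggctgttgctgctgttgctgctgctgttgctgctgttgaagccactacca
The Chodl window held 4 such matches and the Sdc4 and Pax7 windows held 0. Of 32851 promoters of the same length, 72.3% held at least 1, so a match is the common state. The window of Myf5 held 0 E-boxes and 1 TATAAA, a motif found in 13.6% of the promoters on either strand. A RefSeq promoter was matched for Sdc4, Pax7, Calcr, Myf5, Chodl and Cdh15, and Vcam1 had no entry.

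Pax7 (chromosome 4, 139737062 to 139833528, minus strand, GRCm38) was detected in 95 of 171 fibers, or 55.6% (limits 47.8 to 63.1). Its UMIs per fiber ran from 0 to 21 with a median of 1, and its summed level was 7.74 CPM (402 UMIs, limits 7.0 to 8.54). This lay above all of the genes not expected in muscle. Exons make up 6.07% of the gene's 96467 bases, and the sources used here do not say whether its counts came from exons only.

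Myf5 (chromosome 10, 107482908 to 107486134, minus strand) was found in 99 fibers, 57.9% (limits 50.1 to 65.4), at 0 to 9 UMIs with a median of 1. Its 224 UMIs made 4.31 CPM (limits 3.77 to 4.92), above the 3.02 CPM of Prm1, whose limits were 2.57 to 3.54. Although Myf5 had fewer UMIs than Pax7, it was found in about as many fibers, and no fiber held more than 9.

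Calcr (chromosome 6, 3685680 to 3764714, minus strand), the calcitonin receptor that marks quiescent satellite cells, had 143 UMIs in 61 fibers, at 0 to 15 per fiber with a median of 0. The summed level was 2.75 CPM (limits 2.32 to 3.24), within the range of the genes not expected in muscle. Chodl (chromosome 16, 78930948 to 78951733, plus strand), the membrane lectin chondrolectin, had 49 UMIs in 29 fibers at 0 to 5 per fiber, or 0.944 CPM (limits 0.698 to 1.25), also within that range. Summed over all fibers, Calcr and Chodl were thus not above Prm1, the highest of the genes that measure background. The next highest, Ttr, was at 1.41 CPM (limits 1.10 to 1.77). Calcr lay above Ttr, with limits that did not overlap, and Chodl lay below it. Calcr also holds the microRNA genes Mir653 and Mir489 on its own strand.

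Vcam1 (chromosome 3, 116109949 to 116129688, minus strand), an adhesion molecule of satellite cells that endothelial and mural cells can also make, had 200 UMIs in 75 fibers. Counts ran from 0 to 28 with a median of 0, and the level was 3.85 CPM (limits 3.34 to 4.42), whose limits overlap those of Prm1. An antisense gene, Gm43109, overlaps it, and without a stated use of strand in the counting their reads cannot be told apart.

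Sdc4 (chromosome 2, 164424247 to 164443887, minus strand), the heparan sulfate proteoglycan syndecan 4, differed from the other members in being found on 167 of 171 fibers (97.7%, limits 94.1 to 99.4). Its UMIs ran from 0 to 166 with a median of 19, and its level was 96.0 CPM (limits 93.4 to 98.7). Per fiber the middle 50% lay between 59.3 and 123 CPM around a median of 91.1 CPM. The 4 fibers without an Sdc4 UMI were shallow, at 28827 to 60109 UMIs. Only Sdc4 among the measured members was thus found at some level on nearly every fiber.

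**Figure D1:**
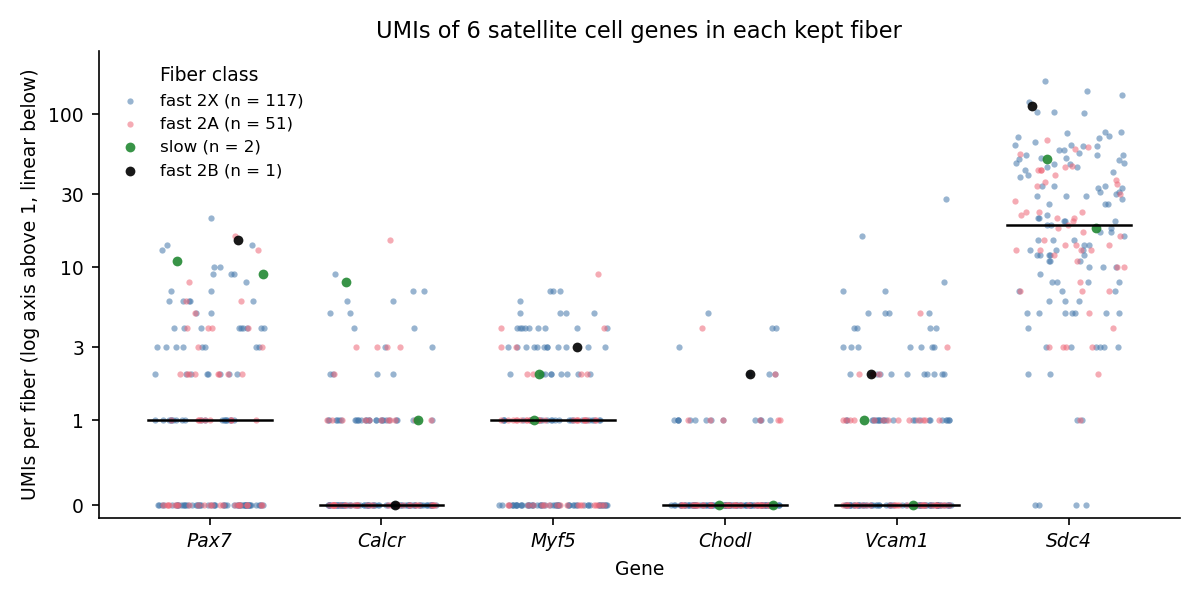
UMIs of each measured member (x axis) in each of the 171 fibers (y axis, log above 1 and linear below), 1 point per fiber, colored by fiber class, with a line at the median over all fibers. Sdc4 has a median of 19 UMIs and is above 0 in 167 fibers, while the medians of the other members are 0 or 1 and their highest fibers reach 5 to 28 UMIs.

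Depth set how often the rarer members were seen. When each fiber was thinned at random to 28827 UMIs, the depth of the shallowest, Pax7 was found in 17.7% of fibers, Myf5 in 10.8%, Vcam1 in 10.4%, Calcr in 7.49% and Chodl in 2.13%, compared with 8.71% for Prm1. Sdc4 was still found in 87.2%. In the 133 fibers with at least 100000 UMIs, thinned to that depth, the shares were 39.1% for Pax7, 36.7% for Myf5, 23.6% for Vcam1, 18.3% for Calcr and 7.74% for Chodl. Prm1 was then found in 21.4% and Sdc4 in 99.3%. At both depths Pax7 and Myf5 were above Prm1 and Calcr was below it.

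A transcript carried by a cell on a few fibers would sit in few fibers, so the share of a gene's UMIs in its 10 richest fibers was divided by the share of all UMIs in those fibers. A value of 1 is an even spread, and since the fibers are picked by the gene's own counts a low gene lies above 1 by sampling alone. Sdc4 had a value of 1.33, Myf5 2.28, Pax7 2.71, Vcam1 3.82, Calcr 4.14 and Chodl 4.98. The order did not follow level throughout, as Pax7 was above Myf5 in both. Of 23 other satellite cell genes the values ran from 1.03 to 10.4 with a median of 2.53. At levels like that of Pax7, its relative Pax3 had 2.09, the growth factor antagonist Spry1 2.53, the receptor Notch3 3.38 and the engulfment receptor Megf10 3.77. The 8 endothelial markers ran from 2.29 to 7.48 (median 4.91), the 8 fibro-adipogenic progenitor markers from 4.26 to 9.68 (median 6.37), and the 7 pericyte and smooth muscle markers from 1.33 to 10.6 (median 5.28). These medians lay above Pax7, but single markers such as Pecam1 (2.29 at 24.8 CPM), Cspg4 (1.33 at 43.6 CPM) and Scx (1.66 at 27.6 CPM) lay below it. No difference between the lists was tested.

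**Figure D2:**
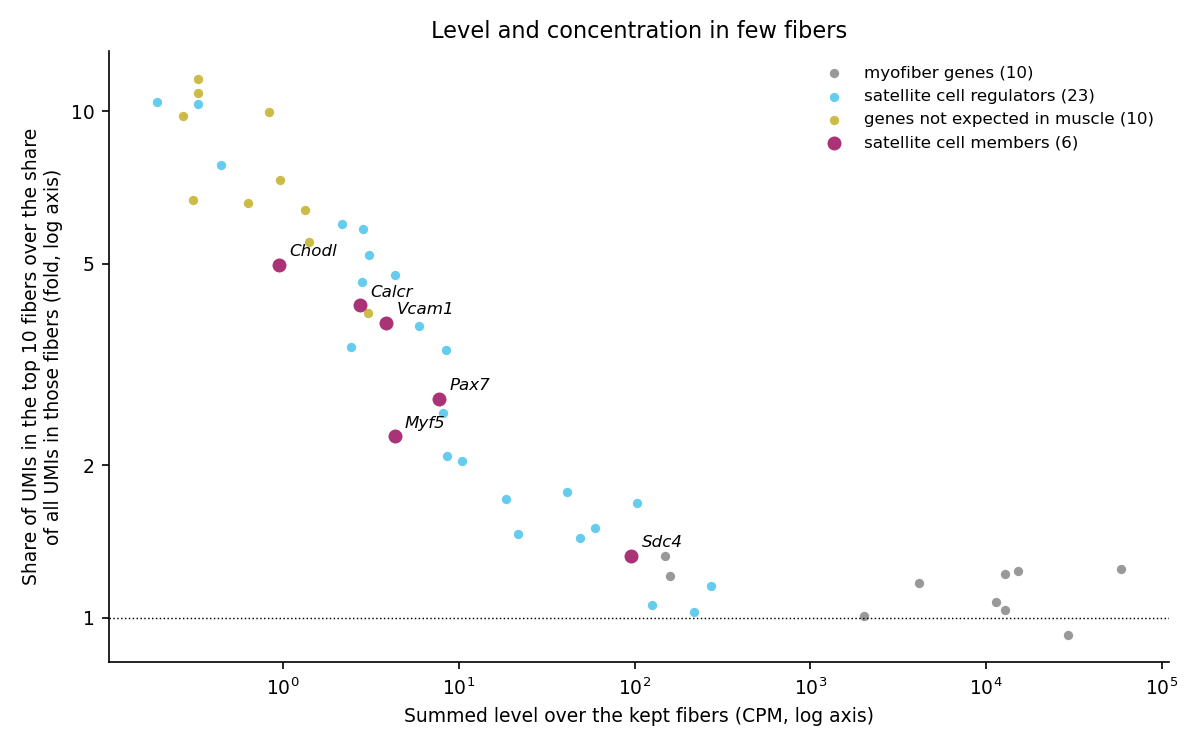
Concentration of a gene in its 10 richest fibers (y axis, fold over the share of all UMIs there, log axis) against its summed level in CPM (x axis, log axis), for members and 3 other gene lists with at least 10 UMIs. The members run from Chodl (0.944 CPM, 4.98) to Sdc4 (96.0 CPM, 1.33), with Pax7 (2.71) above Myf5 (2.28) at a higher level, and the dotted line marks an even spread of 1.

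Of 23 other genes known from satellite cells, 4 were found in every fiber and 9 in fewer than 50% of them. The 4 were the laminin receptor parts Itgb1 (271 CPM), Itga7 (126 CPM) and Dag1 (219 CPM), and the Notch target Hes1 (103 CPM). Like Sdc4, they were found at levels far above the genes not expected in muscle. The genes found in few fibers included the Notch targets Hey1 (10 UMIs in 8 fibers) and Heyl (160 UMIs in 62), the chemokine receptor Cxcr4 (23 UMIs in 17), the transcription factor Msc (17 UMIs in 11), Notch1 (148 UMIs in 64) and Sdc3 (113 UMIs in 41).

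Several members were often found on the same fiber. At least 3 of the 6 were found on 107 of 171 fibers, 62.6% (limits 54.9 to 69.8), all 6 on 12 fibers and none on 2. With Sdc4 on 167 fibers, this mostly asks for any 2 of the rarer members. For scale, the 18854 genes with at least 50 UMIs over these fibers were found on a median of 106 fibers each. No such share was computed for other genes of like level. At least 2 of Pax7, Calcr and Myf5, the narrowest markers of the list, were found on 84 fibers, 49.1% (limits 41.4 to 56.9), and all 3 of them on 36. This followed depth. At least 3 members were found on 8 of the 43 shallowest fibers, 23 of 43 and 33 of 42 fibers in the next groups by depth, and 43 of the 43 deepest. Thinned to 28827 UMIs, 7.46% of fibers had at least 3 members and 4.33% had at least 2 of Pax7, Calcr and Myf5. Thinned to 100000 UMIs, the shares were 37.1% and 24.1% of 133 fibers.

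**Figure D3:**
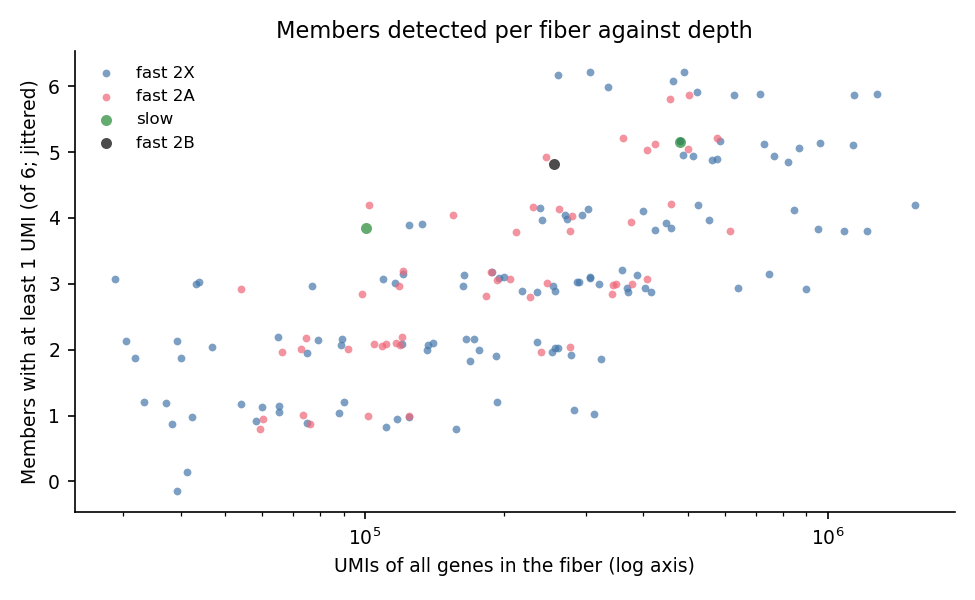
Number of the 6 measured members with at least 1 UMI (y axis, jittered) against the UMIs of the fiber (x axis, log axis), 1 point per fiber, colored by class. The count rises with depth, from a median of 2 members in the 43 shallowest fibers to 5 in the 43 deepest.

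Pairs of members were looked at in the same way. Calcr was found on 48.4% of the 95 fibers with Pax7 and on 19.7% of the 76 without it. Thinned to 100000 UMIs, the shares were 21.1% with Pax7 and 16.5% without. For Myf5 the shares were 69.5% with Pax7 and 43.4% without, and after thinning 39.3% and 34.9%. For Vcam1 they were 56.8% and 27.6%, and after thinning 28.8% and 20.2%. For each of the 3 pairs the shares with and without Pax7 lay closer together after thinning. Thinning also removes UMIs of these rare genes and leaves 133 fibers, so it can narrow such a gap by construction. The part of depth in these pairs was not tested. In residuals that allow for depth, described below, Pax7 had an r of 0.42 with Calcr, 0.37 with Vcam1 and 0.01 with Myf5.

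A few fibers held many UMIs of more than 1 narrow marker. By a definition chosen after the values were seen, at least 5 UMIs in at least 2 of Pax7, Calcr and Myf5, there were 9 such fibers among the 171 and 1 among the 592 cells left out. All 10 were on lane 2 and 5 of them were on a single plate, numbered 710. The definition counts UMIs and so favors deep fibers. Of the 9, the deepest had 1280756 UMIs and 18.0 CPM of the 3 genes, and the lowest level was 14.4 CPM. Over the 171 fibers the summed level of the 3 genes had a median of 10.8 CPM and an upper quartile of 19.6 CPM. In this level 2 fibers stood out at 179 and 177 CPM. The next, at 92.6 CPM, did not meet the definition. The first was a slow fiber with 9 Pax7, 8 Calcr and 1 Myf5 UMIs among 100629, and with 39.8 CPM of endothelial markers, against a median of 42.4 CPM over fibers. Its macrophage markers were at 159 CPM (median 13.3) and its fibro-adipogenic progenitor markers at 139 CPM (median 54.2). The second was a fast 2X fragment on plate 710 with 13 Pax7, 9 Calcr and 0 Myf5 UMIs among 124414. It also held 1005 CPM of endothelial and 354 CPM of Schwann cell markers, compared with medians of 42.4 and 14.5 CPM. Its genes not expected in muscle summed to 104 CPM, the level of its Pax7. That was the highest such sum of the 171 fibers (median 4.32 CPM). The left-out cell was a fast 2X whole myofiber with 6 Pax7 and 6 Calcr UMIs among 65444, 565 CPM of endothelial markers and 43.6% mitochondrial counts. In the slow fiber the Schwann cell (9.94 CPM, median 14.5), tenocyte (19.9 CPM, median 27.2) and red blood cell markers (0 CPM, median 4.15) lay below the medians. Some lists of other cells were above the medians of the 171 fibers in all 3. Any fiber can be above some of several medians, so this alone does not set the 3 apart. No median was taken over the cells left out, where all 8 endothelial markers were at least 2-fold higher in summed level. The part of these markers in the result was not tested.

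The fiber with most Calcr was also the one with most Myf5, a fast 2A fiber of plate 710 with 15 Calcr, 9 Myf5 and 2 Pax7 UMIs among 499910. Its endothelial markers were at 46.0 CPM (median 42.4), its pericyte and smooth muscle markers at 122 CPM (median 74.9) and its macrophage markers at 40.0 CPM (median 13.3). The fiber with most Pax7 was a fast 2X fiber of the same plate, with 21 Pax7, 6 Calcr, 3 Myf5 and 16 Vcam1 UMIs among 627777. It ranked 12 of 171 in endothelial and 8 in fibro-adipogenic progenitor markers (167 and 585 CPM).

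Vcam1 was highest on a fast 2X fiber of plate 711 with 28 UMIs among 218585, where Pax7 had 3 and Calcr and Myf5 had 0. This fiber was the second highest of 171 in endothelial (1189 CPM, median 42.4), in pericyte and smooth muscle (1606 CPM, median 74.9) and in red blood cell markers (393 CPM, median 4.15). The part of these cells in its Vcam1 was not tested.

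**Figure D4:**
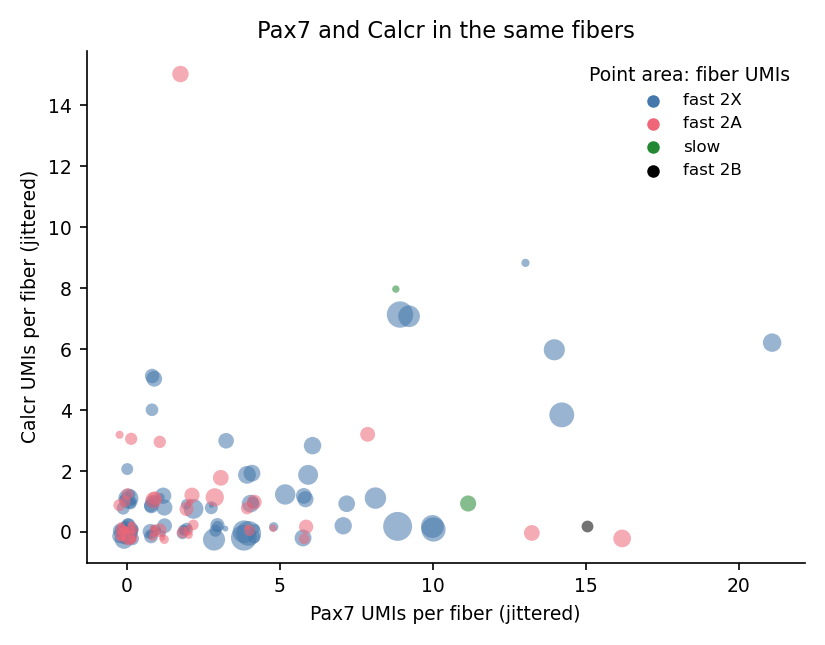
Pax7 (x axis) and Calcr (y axis) UMIs in each of the 171 fibers, both jittered, colored by class, with point area in proportion to the UMIs of the fiber. The slow fiber (9 Pax7, 8 Calcr) and the fast 2X fragment (13 Pax7, 9 Calcr) are small points high on both axes, the fast 2A fiber with 15 Calcr has 2 Pax7, and the fast 2B fiber has 15 Pax7 and 0 Calcr.

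By fiber class, the fast 2A and fast 2X fibers were compared by the ratio of summed CPM among the 18723 genes with at least 50 UMIs. Pax7 was at 8.48 CPM in fast 2A, with 0 to 16 UMIs per fiber (median 1), and at 6.79 CPM in fast 2X, with 0 to 21 (median 1), a log2 ratio of 0.32 (limits -0.02 to 0.66). Calcr was at 3.36 and 2.40 CPM, a log2 ratio of 0.49 (limits -0.09 to 1.03), which was -0.13 without the fiber with most Calcr and -0.16 as a ratio of means over fibers. For Myf5 the levels were 4.62 and 4.16 CPM (log2 0.15, limits -0.32 to 0.60) and for Sdc4 94.9 and 93.7 CPM (log2 0.02, limits -0.08 to 0.11). The limits of these 4 ratios included equality, and for Sdc4 they were the narrowest.

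Vcam1 was the member that differed, at 2.44 CPM in fast 2A, with 0 to 5 UMIs per fiber, and 4.29 CPM in fast 2X, with 0 to 28, a log2 ratio of -0.82 (limits -1.44 to -0.24). Without its highest fiber the log2 ratio was -0.56. It was -0.31 on lane 1 alone and -1.08, past 2-fold, on lane 2 alone. In the same comparison 3 of 7 pericyte and smooth muscle and 1 of 7 endothelial markers were at least 2-fold lower in fast 2A. None of them was higher. Also lower were 3 of 3 red blood cell, 1 of 7 fibro-adipogenic progenitor and 1 of 6 Schwann cell markers. Of 5 macrophage markers 0 passed in either direction, and 2 of 3 tenocyte markers were higher. Among all 18723 genes tested, 1336 were lower and 338 were higher. In all, 0 of the 5 members with enough UMIs passed 2-fold, beside 8.94% of all genes tested, whose median log2 ratio was -0.13. Chodl, with 12 and 35 UMIs, had too few. The direction did not hold within lanes for Pax7, with a log2 ratio of 0.96 on lane 1 and -0.37 on lane 2, nor for Myf5, with -0.56 on lane 1 and 0.68 on lane 2. Without its highest fiber Myf5 was at -0.05. Of the 23 other satellite cell genes, 20 could be compared. Spry1 alone passed 2-fold, being 4.29-fold lower in fast 2A (2.27 against 9.72 CPM).

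The slow and fast 2B classes held 3 fibers, whose values are given without a ratio. The fast 2B fiber had 15 Pax7, 0 Calcr, 3 Myf5, 2 Chodl, 2 Vcam1 and 114 Sdc4 UMIs among 257020. Its Sdc4 level of 444 CPM was the highest of all fibers, the next being at 299 CPM. The slow fiber of plate 707 had 11 Pax7, 1 Calcr, 2 Myf5, 0 Chodl, 1 Vcam1 and 51 Sdc4 UMIs among 478806, and the other slow fiber, of plate 709, is the one described above. In Pax7 the 3 fibers lay between 23.0 and 89.4 CPM, and 15 of the 168 fast 2X and fast 2A fibers (8.93%) reached the lowest of these levels, a line that the 3 fibers themselves set. Chodl was at 0 in both slow fibers, for which the exact upper limit over the pair is 6.37 CPM.

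**Figure D5:**
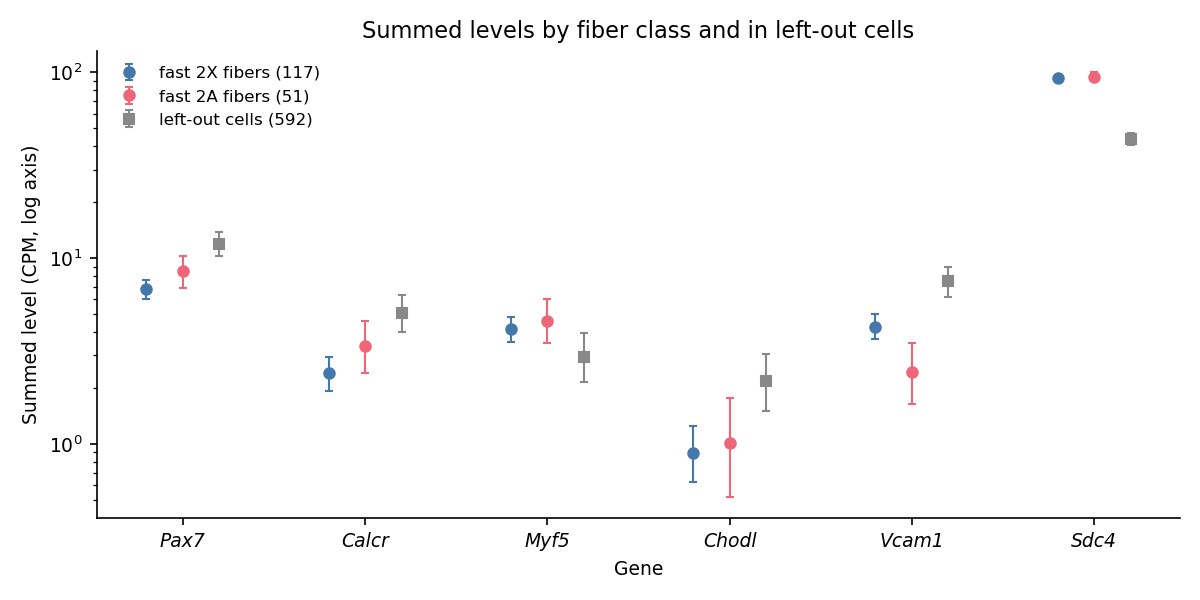
Summed level of each measured member (y axis, CPM, log axis) in fast 2X fibers, fast 2A fibers and left-out cells, with exact Poisson 95% limits as bars. Vcam1 is lower in fast 2A (2.44 CPM) than in fast 2X (4.29 CPM), and Sdc4 is lower in the left-out cells (43.8 CPM) than in either class.

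The 592 cells left out, with a median of 16032 UMIs and 48.0% mitochondrial counts, were a second set from the same plates. They comprised 502 whole myofibers and 90 fragments, which were prepared differently. Sdc4 was at 96.0 CPM in the kept fibers and at 43.8 CPM in the cells left out (log2 -1.13, limits -1.25 to -1.02). Chodl was higher, at 2.18 against 0.944 CPM (log2 1.21, limits 0.53 to 1.87). Vcam1 was at 7.50 against 3.85 CPM (log2 0.96, limits 0.62 to 1.30), Calcr at 5.07 against 2.75 CPM (log2 0.88, limits 0.46 to 1.29) and Pax7 at 11.9 against 7.74 CPM (log2 0.62, limits 0.36 to 0.88). Myf5 was at 2.95 against 4.31 CPM (log2 -0.55, limits -1.04 to -0.09). These ratios stand beside a median of -0.55 over all 20091 genes tested, which Myf5 matched. Pax7, Calcr, Chodl and Vcam1 lay above that median and Sdc4 below it. The lanes differed here too. On lane 1 alone, Pax7 (log2 1.23), Calcr (1.45) and Vcam1 (1.57) passed 2-fold and Sdc4 (-0.87) did not, while on lane 2 alone Sdc4 (-1.39) did, Calcr (0.57) and Vcam1 (0.48) did not, and Pax7 was at -0.27. Chodl had too few UMIs on either lane.

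Of the 6 members, 2 passed 2-fold between the sets, beside 40.5% of all genes. Chodl was the 1 member higher in the cells left out, beside 6.2% of all genes, and Sdc4 the 1 member lower, beside 34.3%. The call of Chodl was lost without the cell with most of its UMIs (log2 0.94), as a mean over cells (0.94) and with mt-Rnr1 and mt-Rnr2 left out of the mitochondrial share (0.60), and that of Sdc4 was lost as a mean over cells (-0.87). Without the cell with most UMIs of each gene, Calcr (1.03) and Vcam1 (1.17) passed 2-fold. In the same comparison all 8 endothelial markers, 4 of 8 fibro-adipogenic progenitor, 3 of 7 macrophage, 2 of 7 pericyte and smooth muscle and 1 of 6 Schwann cell markers were at least 2-fold higher. Of 3 tenocyte markers 0 were higher and 1 was lower, and all 10 myofiber genes were at least 2-fold lower. Of the other satellite cell genes, 4 of 20 were higher, among them Cd34 (13.7 against 4.35 CPM), and 7 were lower, among them Hes1 (27.3 against 103 CPM) and Itgb1 (99.8 against 271 CPM). Mitochondrial counts are part of the total by which each level was divided, and their part in the ratios was not tested.

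The genes whose counts varied most like each member over the 171 fibers are given with Pearson's r of residuals that allow for depth, among genes with at least 200 UMIs. These are descriptions over fibers that share plates, lanes and possibly animals. For Pax7 they were Dgkh (0.56), a diacylglycerol kinase, Glis3 (0.55), a zinc finger factor, and Gli2 (0.53), a hedgehog pathway factor. Among the members, Pax7 had an r of 0.42 with Calcr, 0.37 with Vcam1, 0.20 with Sdc4 and 0.01 with Myf5. For Calcr the genes were Cit (0.53), a kinase of cell division, Arsb (0.52), a lysosomal sulfatase, and Gm11639 (0.50). For Myf5 they were the olfactory receptor gene Olfr1385 (0.43), Gm47743 (0.36) and the pseudogene Nutf2-ps1 (0.35). Vcam1 varied most like Gbp8 (0.65), an interferon-induced GTPase, Ifnar2 (0.63), an interferon receptor, and Notch3 (0.62), which mural cells carry. Without its highest fiber these values were 0.48, 0.53 and 0.50. For Sdc4 they were Osgin1 (0.54), an oxidative stress gene, Junb (0.49), an immediate early factor, and Zswim4 (0.48). Chodl had too few UMIs to compare.

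The lanes differed for some members. Calcr was at 1.64 CPM on lane 1 (limits 1.18 to 2.22) and 3.79 CPM on lane 2 (limits 3.09 to 4.60), and Myf5 at 3.08 (limits 2.43 to 3.85) and 5.46 CPM (limits 4.62 to 6.42). Vcam1 was at 2.80 CPM (limits 2.18 to 3.53) and 4.83 CPM (limits 4.04 to 5.74). Pax7 was at 7.43 CPM (limits 6.40 to 8.58) and 8.03 CPM (limits 6.99 to 9.17), limits that overlap. Sdc4 was at 88.7 CPM (limits 85.1 to 92.5) on lane 1 and 103 CPM (limits 99.0 to 107) on lane 2. Each lane held 4 of the 8 plates, so that lane and plate cannot be told apart. The plates of lane 2 were not alike in Calcr, with 7.76 and 4.21 CPM on plates 710 and 712. Plates 709 and 711, also of lane 2, had 1.88 and 1.53 CPM, and those of lane 1 ran from 1.17 to 2.23 CPM. Over the 8 plates Pax7 ran from 4.76 to 12.5 CPM, Calcr from 1.17 to 7.76 CPM, both highest on plate 710, and Sdc4 from 79.0 to 120 CPM.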

How the data were processed

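Single FDB myofibers were measured by mcSCRB-seq. The authors deposited raw whole-number UMI counts per gene and cell, mapped to GRCm38, with rows of cell descriptors above them, so the table as a whole is of the unit other. They ran zUMIs with default settings, which mapped with STAR and counted with featureCounts. The submitters' processing notes give STAR 2.5.4b and also name Cell Ranger 3.1.0. Whether the deposited table holds exon counts only or introns too, and the use of strand, are not given in the sources used here. Cells with more than 5000 genes and less than 20% mt- counts were kept, and counts were summed by group and scaled to CPM of all gene UMIs. The samples are 2 lanes of 1 group, so no count model was fitted. A gene was compared between groups from 50 UMIs and called at 2-fold. Thinning used 20 random draws, and the draw to 100000 UMIs was added after seeing the data. Residuals for likeness used an overdispersion of 100. Named genes were all members, genes of the lists named in a count or with high levels, and the 3 genes most like each member. Some named after their values were seen (Spry1, Pax3, Notch3, Megf10, Pecam1, Cspg4, Scx, Prm1, the richest fibers). Members and lists were chosen with earlier results of these data known. Gene positions are from GENCODE M21 and promoters from RefSeq. Scripts were tested on simulated data and run in Python 3.11.15 with numpy 2.4.6, scipy 1.17.1 and pandas 2.3.3. Alternatives covered cell filters, lanes, depth, scaling and single fibers.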

Additional observations from a re-analysis of the deposited data

How the results depend on the processing

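The share of fibers with at least 3 members, 62.6%, was 28.7% when at least 2 UMIs were asked for, 7.46% after thinning to the shallowest fiber and 37.1% after thinning to 100000 UMIs. The share with at least 2 of Pax7, Calcr and Myf5, 49.1%, was 21.6%, 4.33% and 24.1% under the same settings. Fewer UMIs by construction lower these shares. The summed level of the 3 genes, 14.8 CPM, was 12.1 to 17.3 CPM with 1 lane left out, 16.2 CPM as a mean over fibers, and 16.2 and 16.1 CPM after thinning to the shallowest fiber and to 100000 UMIs. The count of members past 2-fold between fast 2A and fast 2X was 0 to 1 with 1 lane left out, the 1 being Vcam1 on lane 2 (log2 -1.08). The count between left-out and kept cells, 2, was 1 with mt-Rnr1 and mt-Rnr2 left out of the mitochondrial share, 0 as a mean over cells, 1 with a minimum of 200 UMIs, which Chodl does not reach, and 1 to 3 with 1 lane left out (Sdc4 on lane 2, and Pax7, Calcr and Vcam1 on lane 1). Except where said, the cause was not tested. Of 167 alternative values of single members, 128 moved by less than the limits and 39 by more. None reversed a call, which was possible only for the called ratios, Chodl and Sdc4 between left-out and kept cells. Among the ratios not called, the sign changed under some settings for Pax7, Calcr, Myf5 and Sdc4. A minimum of UMIs leaves the ratio of a gene that reaches it unchanged by construction. Without the cell with most UMIs of each gene, the count between left-out and kept cells was 3, with Calcr and Vcam1 in place of Chodl. Minimums of 4000 and 6000 genes, TMM factors and whole myofibers only, where run, left the shares and the level of the 3 genes within their limits and the counts unchanged. No paired analysis was possible because the comparisons come from no test, and the within-lane ratios stand beside the results. Depth limits the rare members: Chodl rests on 49 UMIs.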

Other observations

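Of 6 genes of later steps of myogenesis, 3 were found on these fibers at higher levels than Pax7 (7.74 CPM) and 3 at lower levels. Myod1, a myogenic factor, was found on 154 of 171 fibers at 41.0 CPM, and Myf6, a myogenic factor of mature muscle, on 164 at 85.0 CPM. The concentration of Myod1 in its 10 richest fibers was 1.56, where 1 is an even spread. Whether Myod1 came from attached cells or from the fibers was not tested. Mef2c, a muscle transcription factor, was found on all 171 at 1664 CPM. Myog, which marks differentiation, was at 4.41 CPM on 89 fibers, close to Myf5 in level. The fusion genes Mymk and Mymx had 22 UMIs and 1 UMI in all. Of 5 proliferation genes, each was on 65 fibers or fewer. The highest was Top2a at 2.31 CPM, within the range of the genes not expected in muscle, of which only Prm1 was higher. Myod1, Myog, Myf6 and Mef2c were all at least 2-fold lower in the cells left out.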
